A study of Macaca fascicularis and Mus musculus with 492 samples.

Results

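CMK6 is an embryonic stem cell (ESC) line of the cynomolgus monkey. It was profiled in a feeder-free culture (9 cells) and in a culture on a feeder layer of mouse embryonic fibroblasts (14 cells), and these 23 cells, chosen by the culture code in their column names, are described here out of 492 single-cell samples of monkey and mouse. The feeder culture used a medium for human ESCs with serum replacement, mouse LIF (a cytokine that acts through STAT3) and bFGF (an activator of ERK signalling). The feeder-free culture used a published condition for human pluripotent cells, whose components the labels do not list. A further culture, the line CMK9 on feeders (8 cells), served as a second on-feeder reference. Each cell was measured by SC3-seq, a method that reads the 3-prime ends of transcripts from amplified single-cell cDNA, and values are in RPM (reads scaled to a common library total).

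Culture, dissociation and title code coincide. On-feeder cells were detached as clumps and then trypsinised, feeder-free cells were treated with TrypLE Select, and both were dispersed with a ROCK inhibitor (a drug that lowers actomyosin contraction). All feeder-free titles carry the code MS11 and all on-feeder titles, CMK9 included, the code MS05. Effects of feeders, medium, dissociation and title code therefore cannot be told apart. There was 1 culture of each kind, and cells of a culture are not replicates of it, so differences between the CMK6 cultures are described without a test, as differences of the mean of log2(RPM + 1) over cells with the SD over cells.

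Primate ESCs stand close to the postimplantation epiblast and are called primed. They depend on FGF and activin signals and on the factors POU5F1, SOX2 and NANOG. Feeder fibroblasts supply matrix and secreted factors, and serum replacement contains albumin that carries lipids.

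The cells were sequenced to similar depth. Reads per cell, estimated from the value of 1 read, were 1248489 to 3804364 (median 2169574) in feeder-free CMK6, 1732688 to 3244541 (median 2248861) in CMK6 on feeders and 1684571 to 3282348 in CMK9. One feeder-free cell, cell 1, stood apart: 9954 genes were detected in it (11351 to 12712 in the other feeder-free cells) and 18.4% of the genes kept were at 0, against 2.76% to 8.10% in the others. Values without it are given beside many of the results whose direction or side of the size rule it changed. A result printed without such a value may also have changed. The highest correlation of any pair of CMK6 cells was 0.759 over these genes.

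Both cultures held cells with the markers of pluripotent stem cells. POU5F1 was at 646 to 1589 RPM (median 1063) over feeder-free cells and at 1196 to 1793 RPM (median 1361) over on-feeder cells, and it was detected in every cell of both. Markers of fibroblasts, the feeder cell type, overlapped between the cultures. Of 17 fibroblast genes 5 were kept, 4 of them below 0 (lower feeder-free), with a median of -0.84 (-0.83 without cell 1). Of all genes kept, 53.4% were below 0. The fibroblast median ranged from -1.24 to -0.15 over the alternative settings. COL1A2 was at -1.72 (-2.04 without cell 1), PDGFRB at -1.22, COL1A1 at -0.84 and THY1 at 0.36. The summed level of the 17 genes was 294 to 776 RPM (median 440) feeder-free and 104 to 1597 RPM (median 779) on feeders. Without COL1A1 and THY1 it was 19.1 to 177 RPM (median 34.99) and 14.8 to 192 RPM (median 61.4). S100A4, TWIST1, TWIST2 and PRRX1 were at 0 in every feeder-free cell, and LUM, S100A4 and FAP in every CMK6 cell on feeders. THY1 is also on the list of surface markers of pluripotent cells. The feeders were of mouse and the values are of genes of the monkey build, so feeder RNA is not measured directly here. The part of fibroblast RNA in the results was not tested. Of the markers given for the cultures, FZD2 and COL2A1 were higher feeder-free and PLIN2 was higher on feeders.

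Of 9802 genes kept (average of both culture means at least 2), 83 were higher by at least 2 on the log2 scale in feeder-free CMK6 (0.847%) and 138 were lower (1.41%). By at least 1, 7.22% were higher and 10.2% lower. The sign alone divided the genes into 46.6% above 0 and 53.4% below, with a median difference of -0.06. Without cell 1, 127 of the same genes were higher by at least 2 and 129 lower. The culture means are plotted against each other for all kept genes.

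**Figure D1:**
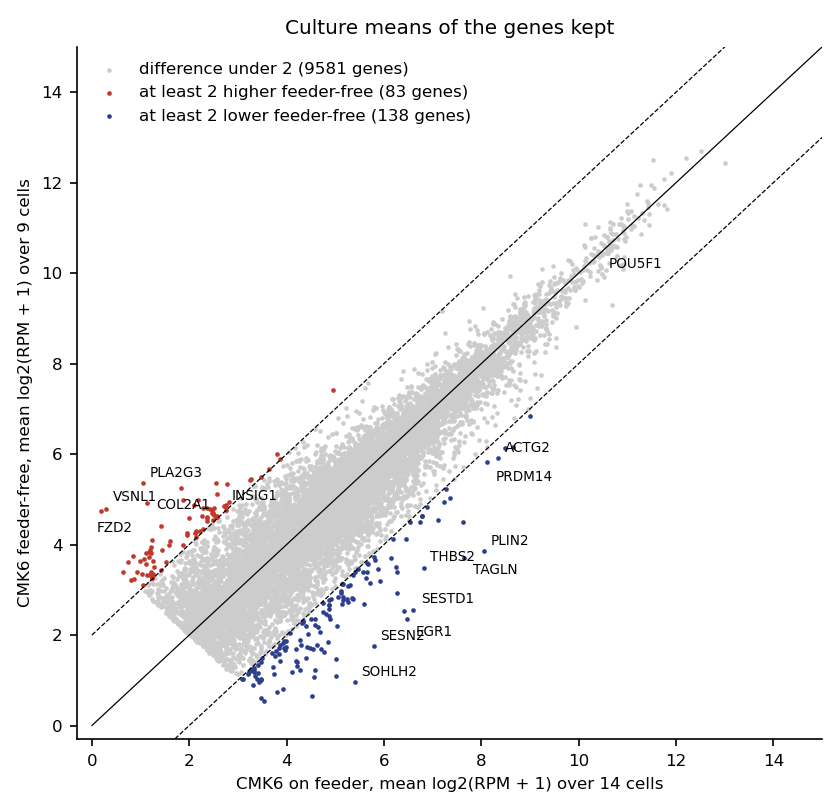
Mean log2(RPM + 1) over 9 feeder-free CMK6 cells (y axis) against 14 on-feeder CMK6 cells (x axis), 1 point per gene kept; the solid line marks equal means and the dashed lines a difference of 2. The 83 genes above the upper line include FZD2, VSNL1 and COL2A1, and the 138 genes below the lower line include PLIN2, TAGLN and SESN2.

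The same difference between the lines on feeders, CMK9 minus CMK6, passed 2 in 170 genes upward and 69 downward of 9932 kept. That comparison shares the on-feeder CMK6 cells with the one above. Feeder-free CMK6 was the highest of the 3 cultures in 32.6% of the 9802 genes and the lowest in 41.7%. In the only fit with a spread between cultures (limma on the 3 culture means, the feeder-free culture against both on-feeder cultures, 1 residual degree of freedom), 0 of 9915 genes (0%) passed an adjusted p of 0.05. The smallest adjusted p of that limma fit was 0.185, for PLIN2. At an unadjusted p below 0.05 there were 317 genes higher and 736 lower. No gene difference below passed this test, and "higher" and "lower" describe these cultures only.

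The gene with the largest positive difference among the named genes was FZD2, which encodes a receptor for WNT ligands. The order of the leading genes depended on the pseudocount: VSNL1 led at 0.1 (7.37) and PLA2G3 at 10 (2.12, with FZD2 at 1.95). It was at 2.66 to 82.4 RPM (median 43.5) in feeder-free cells, and detected in 9 of 9. In on-feeder CMK6 cells it was at 0 to 1.08 RPM (median 0), detected in 3 of 14 (21.4%; 95% Clopper-Pearson interval 4.66% to 50.8%). Every feeder-free cell was above every on-feeder CMK6 cell. The means were 4.74 ± 1.49 and 0.18 ± 0.36 (SD over 9 and 14 cells), a difference of 4.56. CMK9 on feeders lay between them at 1.66, with cells from 0 to 25.5 RPM, so its upper cells overlapped the feeder-free range.

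COL2A1, the chain of the fibrillar collagen of cartilage, was at 0 to 103 RPM (median 39.02) feeder-free and at 0 to 13.3 RPM (median 0.28) on feeders, a difference of 3.78 (4.92 ± 1.96 against 1.14 ± 1.39, SD over cells). The single feeder-free value of 0 was that of cell 1, and the other 8 cells were above every on-feeder CMK6 cell. Leaving that cell out gave 4.40. In CMK9 the mean was 0.56.

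VSNL1, a neuronal calcium sensor, was at 5.29 to 68.1 RPM (median 28.8) in feeder-free cells and was detected in 2 of 14 on-feeder CMK6 cells, at up to 11.9 RPM. Its difference was 4.48, and the mean in CMK9 was 0.34. PLA2G3, a secreted phospholipase, was at 9.36 to 90.3 RPM feeder-free and 0 to 14.4 RPM on feeders, with a difference of 4.31 and a CMK9 mean of 2.48. In both genes most feeder-free cells, 7 and 8 of 9, were above the highest on-feeder CMK6 cell.

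The remaining large positive differences were smaller. FCGR2B, an inhibitory Fc receptor, differed by 3.42, MORN2 by 3.10, PRTG by 2.99, PABIR1 by 2.90, ZNF180 by 2.85, EPHX2 by 2.82, PRRG1 by 2.81 and BBS1 by 2.78. For MORN2, 8 of 9 feeder-free cells were above every on-feeder CMK6 cell, for EPHX2 7, and for BBS1 1. For PABIR1, EPHX2, MORN2 and BBS1, CMK9 on feeders was nearer to feeder-free CMK6 than to CMK6 on feeders. EPHX2, an epoxide hydrolase of lipid metabolism, had means of 5.36 feeder-free, 2.55 in CMK6 on feeders and 4.76 in CMK9.

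PLIN2, the main coat protein of lipid droplets, was at 2.30 to 69.7 RPM (median 20.0) feeder-free and at 61.7 to 798 RPM (median 290) in CMK6 on feeders. Of the 9 feeder-free cells, 8 were below the lowest on-feeder cell. The one that overlapped was cell 1, at 69.7 RPM. The means were 3.86 ± 1.53 and 8.06 ± 1.11, a difference of -4.20 (-4.49 without cell 1). CMK9 on feeders had 287 to 758 RPM (mean 8.97), so both on-feeder cultures were high.

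SESTD1 was at 0 to 33.6 RPM feeder-free and at 57.7 to 202 RPM on feeders, so that no cell overlapped; the difference was -4.03. Together with FZD2 and LOC102128220, a gene without a symbol named here after its values were seen (-3.87), it made up the 3 genes (0.0306% of those kept) that were past a difference of 2 with every cell of the cultures apart. At any size, every feeder-free cell was above every on-feeder cell in 19 genes (0.194%) and below in 6 (0.0612%).

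SOHLH2, a transcription factor known from germ cells, was detected in 2 of 9 feeder-free cells and in 13 of 14 on-feeder CMK6 cells, with a difference of -4.45. Its mean in CMK9 on feeders was 0.07, so it was high in CMK6 on feeders alone among the 3 cultures. RGS16, which shortens G-protein signals, was at 1.20 to 32.5 RPM feeder-free and 3.32 to 494 RPM on feeders (-3.87). THBS2, a matrix protein (-3.32), BASP1 (-3.34) and MAK16 (-3.36) were also lower. The plot of 8 genes by cell shows which of these differences separated the cells.

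**Figure D2:**
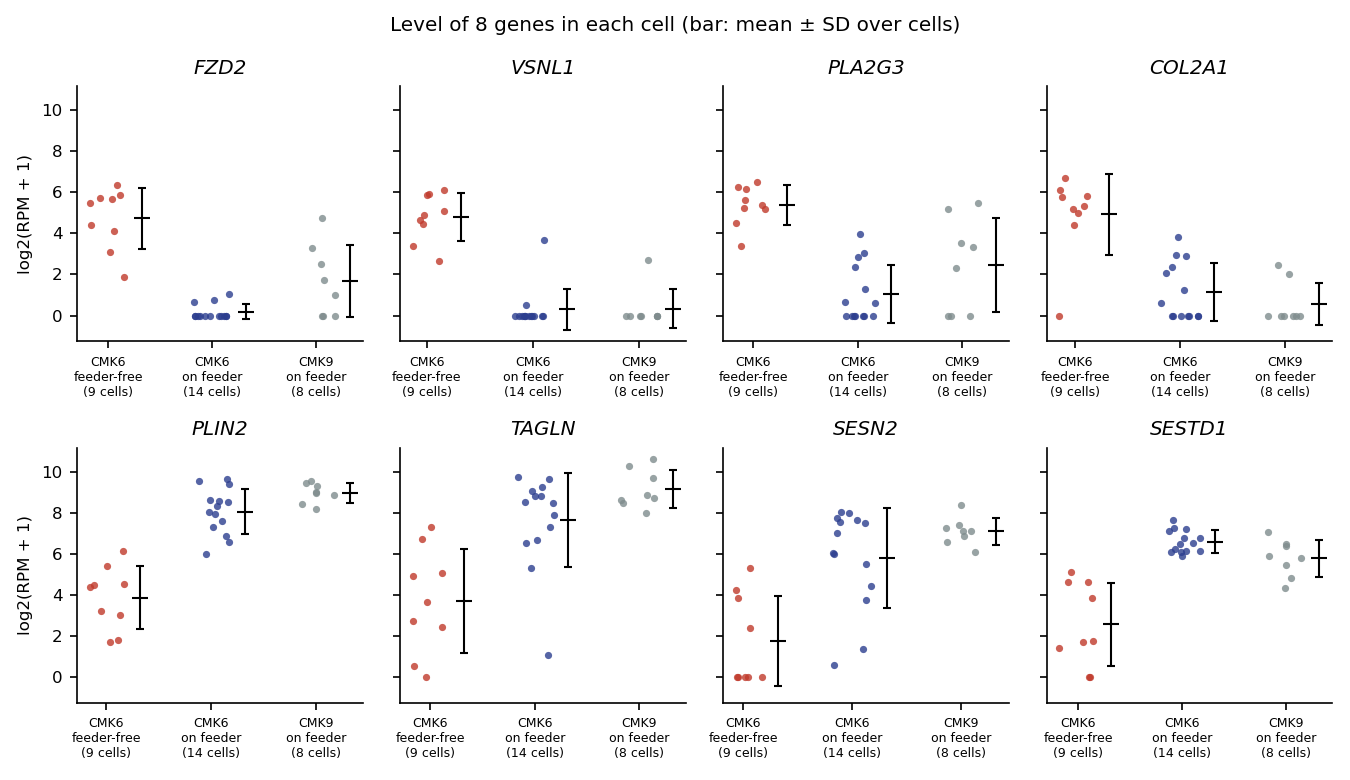
Level of 8 genes as log2(RPM + 1) in each cell (points) of feeder-free CMK6, CMK6 on feeders and CMK9 on feeders, with the mean ± SD over cells beside them. FZD2 and SESTD1 show no overlap between the CMK6 cultures, while TAGLN and SESN2 have on-feeder CMK6 cells as low as the feeder-free ones.

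Genes that make lipids were higher feeder-free, opposite to PLIN2. All 19 cholesterol synthesis and uptake genes kept of 24 listed were above 0, with a median of 0.97, and 2 of them were past 2. INSIG1, a sterol-sensing brake on this pathway, was at 0 to 185 RPM (median 62.03) feeder-free and 0 to 52.7 RPM (median 4.13) on feeders, a difference of 2.11. The cells overlapped, with 5 of 9 feeder-free cells above the on-feeder range. TM7SF2, a sterol reductase, differed by 2.18, and STARD4, a sterol carrier, by 1.99 (2.34 without cell 1). SREBF2, the transcription factor of the pathway, differed by 0.09.

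CMK9 on feeders was nearer to feeder-free CMK6 than on-feeder CMK6 was: the median difference of the 19 genes from CMK9 was 0.30. Feeder-free CMK6 was the highest of the cultures in 14 of the 19. TM7SF2 was at 3.32 feeder-free and 3.31 in CMK9. Cell 1 had the lowest mean of the 19 genes of any feeder-free cell, 3.80, against 5.85 for the next lowest, and without it the median was 1.37 and 4 genes were past 2.

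All 12 fatty acid synthesis genes kept of 14 listed were above 0, with a median of 0.89 (1.05 without cell 1). Against CMK9 the median was 0.49, and feeder-free CMK6 was the highest of the cultures in 9 of the 12. SCD, which makes monounsaturated fatty acids, was at 544 to 693 RPM (median 599.7) feeder-free and 141 to 390 RPM (median 280.1) on feeders. Its difference was 1.19, and none of the cells of the CMK6 cultures overlapped. The feeder-free SD of SCD over cells was 0.14, against 0.47 on feeders. FADS2 and FADS1, the desaturases of polyunsaturated fatty acids, differed by 1.65 and 1.51, FASN, the fatty acid synthase, by 1.05, and ME1, which supplies NADPH, by 2.06 (1.84 without cell 1). SREBF1, the transcription factor for these genes, differed by 1.45. Among the 10 genes kept of the list for lipid droplets and fatty acid oxidation, PLIN2 alone was past 2, 7 were below 0 and the median was -0.29.

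Targets of ATF4, the transcription factor of the amino acid and integrated stress response, were lower feeder-free: 16 of the 17 genes kept were below 0, 6 were past 2 (5 without cell 1) and the median was -0.85. SESN2, which restrains mTORC1, was at 0 to 38.6 RPM (median 0) feeder-free and 0.51 to 259 RPM (median 95.5) on feeders, a difference of -4.05. It was detected in 4 of 9 feeder-free cells and in all 14 on-feeder CMK6 cells. TRIB3, a pseudokinase that feeds back on ATF4, was detected in 3 of 9 and in 14 of 14, with a difference of -3.93. On-feeder CMK6 cells themselves spanned a wide range, and some were as low as the feeder-free cells.

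ATF3, itself a stress-induced factor, differed by -2.88, SHMT2, the mitochondrial serine hydroxymethyltransferase, by -2.73, STC2 by -2.22 and SLC7A11, the cystine transporter, by -2.07. ATF4 mRNA itself differed by -0.85 (8.54 ± 0.37 against 9.39 ± 0.45). The enzymes of serine and asparagine synthesis differed less: PSAT1 by -0.81, ASNS by -0.53 and PHGDH by -0.34. Against CMK9 the median of the 17 genes was -1.81, and feeder-free CMK6 was the lowest of the cultures in 16 of them. The unfolded protein response list had a median of -0.19 over 10 genes, with none past 2.

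Actin and contractility genes, targets of SRF and YAP, were lower too: 20 of the 23 genes kept were below 0, 5 were past 2 and the median was -1.11 (-0.83 without cell 1). TAGLN, an actin-binding protein of smooth muscle, was at 0 to 157 RPM (median 11.4) feeder-free and 1.07 to 854 RPM (median 360) on feeders, a difference of -3.94. CMK9 on feeders had 252 to 1565 RPM. The muscle actins ACTA1 and ACTG2 differed by -2.56 and -2.43, the tropomyosin TPM2 by -2.16 (-1.58 without cell 1) and the calponin CNN1 by -2.06. ACTA1 had a CMK9 mean of 3.75, nearer to feeder-free CMK6 (3.15) than to CMK6 on feeders (5.71). For ACTG2 the CMK9 mean was 9.50, against 5.92 and 8.35. The cytoplasmic actins ACTG1 and ACTB differed by -0.57 and -0.11, and SRF by 0.25. Feeder-free CMK6 was the lowest of the cultures in 19 of the 23.

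Immediate early genes, which respond within minutes to serum, growth factors or handling, had 13 of 18 kept below 0, 5 past 2 and a median of -0.78. ATF3 is counted in this list as well. Of all genes kept, 53.4% were below 0. EGR1 was at 0 to 76.8 RPM (median 0.92) feeder-free and 0.42 to 1377 RPM (median 163) on feeders, a difference of -4.12. The SD over on-feeder cells was 2.90. CMK9 on feeders had a lower mean of EGR1 (4.35) than CMK6 on feeders (6.48), but higher means of EGR3 (4.92 against 3.93) and ATF3 (4.73 against 3.48). Against CMK9 the median of the list was -0.75. EGR2 and EGR3 differed by -3.48 and -3.13, NR4A1 by -2.10 and FOS by -1.46. Heat-shock genes of the same list did not share this: DNAJB1 differed by 1.11, HSPH1 by 0.36 and HSPA8 by 0.21. Culture and dissociation enzyme cannot be told apart in these values.

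**Figure D3:**
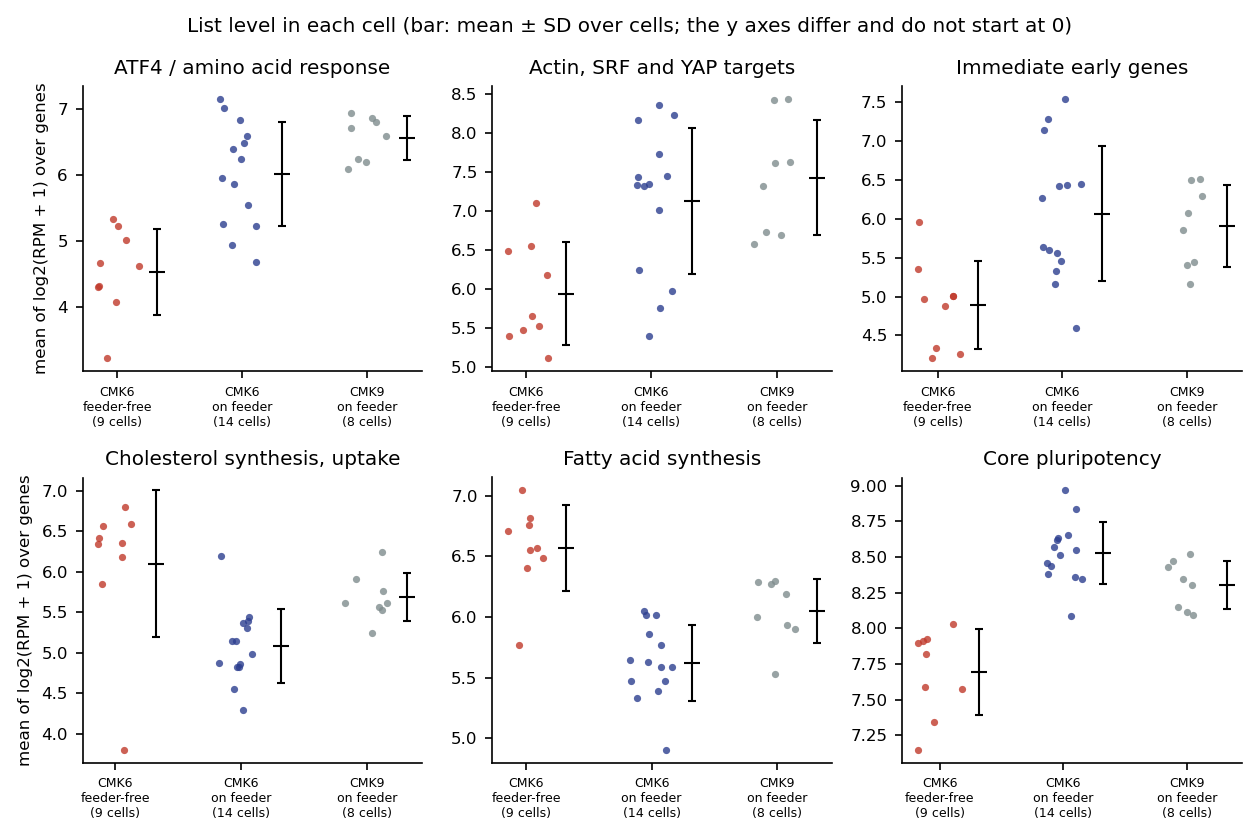
Mean of log2(RPM + 1) over the kept genes of 6 lists in each cell (points), with mean ± SD over cells; the y axes differ and do not start at 0. The core pluripotency means of the CMK6 cultures do not overlap (7.15 to 8.03 feeder-free, 8.09 to 8.97 on feeders), and cell 1 is the low feeder-free point in both lipid lists.

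Core pluripotency genes were lower feeder-free. All 10 kept were below 0, with a median of -0.60, and 2 were past 2. The mean over the 10 genes in each cell was 7.15 to 8.03 feeder-free and 8.09 to 8.97 on feeders, so every feeder-free cell was below every on-feeder CMK6 cell. CMK9 on feeders had 8.10 to 8.52. PRDM14, a repressor that holds the pluripotent state, had the largest difference, -2.29: it was at 23.05 to 167 RPM (median 49.5) feeder-free and 145 to 853 RPM (median 259.7) on feeders, with 8 of 9 feeder-free cells below the on-feeder range. Its CMK9 mean, 8.15, was near that of CMK6 on feeders, 8.12. DPPA2, a chromatin factor of early embryos, differed by -2.20 (-1.83 without cell 1).

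POU5F1 differed by -0.50 (9.99 ± 0.48 against 10.49 ± 0.20), SOX2 by -0.22 and NANOG by -0.04, and LIN28A, an RNA-binding protein, by -0.59. For SOX2 and NANOG the cells overlapped over most of their range. Of 16 naive genes, which mark the preimplantation epiblast, 1 was kept, TFAP2C, and it differed by -0.42. TFAP2C is also on the trophectoderm and germ cell lists. The summed level of the 16 naive genes was 2.48 to 93.3 RPM (median 38.5) feeder-free and 0 to 117 RPM (median 26.3) on feeders. KLF17, ZFP42 and DPPA5 had a median of 0 RPM in both cultures. The 16 primed genes, all kept, had a median of 0.16 with 9 above 0 (-0.02 and 8 without cell 1). Among them CYP26A1, which degrades retinoic acid, was at -2.87, and OTX2, a postimplantation factor, at 1.68.

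DNA methylation genes were mixed: the median of 7 was -0.58, with DNMT3B, the de novo methyltransferase, at -0.73, TDG, a DNA glycosylase, at -1.69 and TET3 at 0.98.

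In the LIF and STAT3 pathway, whose ligand was added to the feeder medium, 11 of 13 genes kept were below 0 (8 without cell 1) and the median was -0.37 (-0.43 without cell 1). Over all genes kept, 53.4% were below 0 with it. The shared receptor IL6ST was at 0.44 to 28.8 RPM (median 7.21) feeder-free and 8.20 to 132 RPM (median 34.6) on feeders, a difference of -2.22. STAT3, the transducer, was at 7.59 to 56.3 RPM and 41.6 to 408 RPM (-1.93, and -2.03 without cell 1), with 5 of 9 feeder-free cells below the on-feeder range for each of the genes. The targets SOCS3 and CEBPB differed by -1.95 and -2.22 and LIFR, the specific receptor, by -0.37. SOCS2 went the other way, at 1.47.

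In the FGF and ERK pathway 12 of 16 genes were above 0, against 46.6% of all genes kept, with a median of 0.47. The mean over the 16 genes in each cell was 4.13 to 6.36 feeder-free. That lay within the range of CMK6 on feeders, 3.76 to 6.63. DUSP6, the ERK phosphatase that ERK itself induces, was at 6.67 to 639 RPM (median 336) feeder-free and 0 to 290 RPM (median 30.3) on feeders, a difference of 2.45. ETV5 and SPRY2, further ERK targets, differed by 1.65 (2.14 without cell 1) and 1.18, and FGFR3 by 2.07. The CMK9 mean of FGFR3, 2.89, was near that of feeder-free CMK6, 3.11, with CMK6 on feeders at 1.05. CMK9 on feeders was higher than feeder-free CMK6 for DUSP6 (8.34 against 7.41), ETV5 (6.00 against 4.71) and SPRY2 (6.69 against 5.67), so on-feeder CMK6 was the lowest culture for these targets. The median of the list against CMK9 was -0.71.

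Among WNT genes 15 of 20 were above 0, against 46.6% of all genes kept, with a median of 0.35. Those past 2 were the receptor FZD2 and DKK3 (2.09, and 1.70 without cell 1), a secreted member of the Dickkopf family. Differences of other receptors were smaller than that of FZD2 and of both signs. FZD6 differed by 1.51 and FZD8 by 1.21, while FZD7 differed by -1.12 and FZD3 by -0.18. TCF7, a transcription factor of the pathway and a WNT target, was at -1.85.

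For NODAL and activin signalling the median of 11 genes was -0.02, with the inhibitor LEFTY2 at -2.75 and SMAD7 at -1.69. The CMK9 mean of SMAD7, 4.04, was near that of feeder-free CMK6, 4.34, with CMK6 on feeders at 6.03. For LEFTY2 the CMK9 mean, 4.39, was near that of CMK6 on feeders, 4.47. LEFTY2 ranged from 0 to 217 RPM feeder-free and from 0 to 655 RPM on feeders, so the cells of the cultures overlapped. BMP genes had a median of 0.11 over 11, with ID4 at -3.12 and ID3 at 1.54 (2.19 without cell 1). In the insulin and IGF list (median -0.10 over 12, and 0.13 without cell 1), IGFBP2, a secreted IGF carrier, was at 39.2 to 221 RPM feeder-free and 6.84 to 65.6 RPM on feeders, a difference of 1.74. Of 9 feeder-free cells, 8 were above every on-feeder CMK6 cell. IGFBP3 was lower by 2.49 than on feeders, and CMK9 was as low (1.67 against 1.70).

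Matrix genes had no common direction. Of 12 collagen genes 6 were above 0, with a median of -0.21 (0.13 without cell 1). COL2A1 alone was past 2, joined without that cell by COL1A2. Of 7 laminin and nidogen genes 3 were above 0 (median -0.06), with NID1 at 2.00 and LAMB2 at -1.86. In CMK9 the mean of NID1 was 4.10, nearer to feeder-free CMK6 (4.75) than to CMK6 on feeders (2.75). That of LAMB2 was 4.05, nearer to CMK6 on feeders (3.80). Integrins had a median of 0.13 (-0.01 without cell 1). SPP1 (osteopontin), a secreted glycoprotein, was at -2.50 and the protease PLAU at -2.11 (-1.76 without cell 1). In the hypoxia list 7 of 9 genes were below 0, against 53.4% of all genes kept. The median was -0.57, and DDIT4, an mTORC1 inhibitor, was at -3.02.

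Median differences of housekeeping programmes were small. The mean over the 21 oxidative phosphorylation genes was still below every on-feeder CMK6 cell in 6 of 9 feeder-free cells (7.56 ± 0.14 against 7.76 ± 0.10, SD over cells). Medians were -0.04 for 19 glycolysis genes, -0.16 for 21 oxidative phosphorylation genes, 0.06 for 12 ribosomal protein genes and -0.06 for 24 cell cycle genes, each with none past 2. Without cell 1 the cell cycle median was 0.23, with 1 gene past 2, and the glycolysis median 0.01. Lineage markers were kept in part: 3 of 12 endoderm, 4 of 12 trophectoderm, 3 of 13 neural, 3 of 7 amnion and 4 of 8 germ cell genes. Their median differences were 0.42, -0.29, -0.84, -0.74 and -0.10. KRT8, KRT18 and GATA3 of the trophectoderm list and NES of the neural list were detected in every cell of all 3 cultures. Of the endoderm genes, FOXA2, an endoderm factor, was at 2.70 (1.31 to 136 RPM feeder-free, 0 to 10.97 on feeders) and AFP at -2.92. Of 14 mesoderm and gastrulation genes 1 was kept, SNAI1, at -0.98. The summed level of the 14 genes was 3.23 to 68.6 RPM feeder-free and 0 to 97.2 RPM in CMK6 on feeders. In CMK9 it was 26.7 to 279 RPM. Among these genes, GSC and MESP1 were at 0 in every cell of all 3 cultures.

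**Figure D4:**
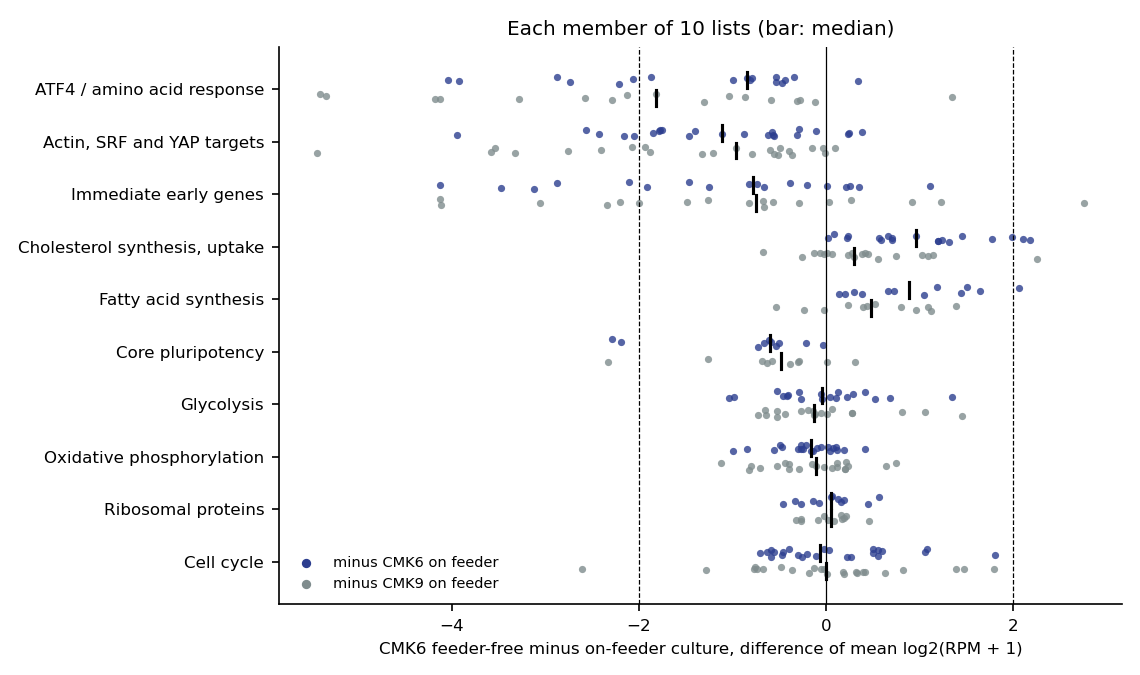
Difference of mean log2(RPM + 1), feeder-free CMK6 minus CMK6 on feeders (blue) and minus CMK9 on feeders (grey), for each kept gene of 10 lists (points; black bars are medians, dashed lines mark 2). The ATF4 list has medians of -0.85 and -1.81, the cholesterol list 0.97 and 0.30, and glycolysis and ribosomal genes lie around 0; both differences use the same feeder-free cells.

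The code MS11 was also carried by 12 cells of day 17 (E17) embryos, beside 41 E17 cells of other codes. The classes of these embryo cells were not matched. The comparison was not one of MS11 with MS05, the code of the on-feeder cultures, so it does not measure that difference of codes. MS11 minus the other codes had a median of 0.01 over the 9802 genes, -0.03 for the ATF4 list, 0.13 for actin and SRF, -0.08 for immediate early genes, 0.21 for cholesterol, 0.39 for fatty acid synthesis and -0.20 for core pluripotency. PLIN2 had means of 6.18 in MS11 E17 cells and 5.81 in the others, FZD2 of 2.83 and 1.56, COL2A1 of 1.296 and 0.88, and TAGLN of 1.56 and 2.18. The LIF and STAT3 list was at 0.49, opposite to its sign between the CMK6 cultures. Of the 83 genes higher by at least 2 in feeder-free CMK6, 41 (49.4%) were higher in MS11 E17 cells, against 50.4% of all genes kept. Of the 138 lower genes, 74 (53.6%) were lower there, against 49.6% of all. Among these 221 genes the E17 difference had the same sign and was at least as large in FOXA2 (3.26 against 2.70) and DUSP6 (2.56 against 2.45). The part of the title code in the CMK6 differences was not tested.

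Cells of the feeder-free culture differed more from each other. Over 3880 genes with a mean of at least 5 in both CMK6 cultures, the median SD over cells was 0.70 feeder-free and 0.59 on feeders, and the SD was larger feeder-free in 67.3% of genes. After thinning every cell to 1248431 reads the share was 66.8% (medians 0.70 and 0.60). Without cell 1 it was 58.4%, with a median SD of 0.63, and in CMK9 the median was 0.53.

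The 5 largest SDs feeder-free were those of CAV1 (3.05), GPR176 (2.92), ID3 (2.67), MEN1 (2.57) and CKAP5 (2.57). CAV1, the coat protein of caveolae, was at 0 to 243 RPM feeder-free and 0 to 499 RPM on feeders, where it was also among the 5 largest (2.35). GPR176, an orphan receptor, varied in the feeder-free culture (0 to 337 RPM) and less on feeders (41.1 to 308 RPM, SD 0.79). CKAP5, a microtubule polymerase, was at 0 in cell 1, and its SD without that cell was 0.97. On feeders the largest SDs included those of ALCAM, an adhesion molecule (2.48), SPP1 (2.30) and the intermediate filament VIM (2.28). SPP1 and VIM varied about as much feeder-free, with SDs of 2.34 and 2.49.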

How the data were processed

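The authors deposited RPM per gene and cell for the build macFas5, per the file headers; cutadapt 1.3, TopHat 1.4.1 and Cufflinks 2.2.0 are named in the submitters' processing notes, with no role given. Of 29095 rows, 298 without values were left out. Of 14758 LOC names, 3296 were given RefSeq symbols matched on gene ID. Reads were estimated as RPM over the most common value above 0.01 RPM (at least 99.8% of values under 500 reads within 0.1 of whole). The sources used here name no molecular identifiers. The intervals for detection cover the sampling of cells within a culture alone. All cells were used, and doublets were not called because cells were prepared singly.

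Culture means of log2(RPM + 1) were compared, and genes were kept at an average of both CMK6 means of at least 2. The 3 culture means were fitted with limma 3.58.1 (R 4.3.3; eBayes with trend, Benjamini-Hochberg, two-sided), checked on simulated data; the lone feeder-free culture was assumed to vary like the others. Python 3.11.15, numpy 2.4.6, pandas 2.3.3 and scipy 1.17.1 were used. Named genes were the 12 largest differences in each direction with interquartile ranges apart, the given markers, up to 4 genes from each of 42 lists and list members described by role. A few genes that this rule names are not reported here. Members and lists were chosen with earlier results of these data known. The counts by sign, at 1 and over 3 cultures were added after values were seen. Alternatives covered the pseudocount, filter, summary, scaling, thinning and left-out cells.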

Additional observations from a re-analysis of the deposited data

Results flagged for a closer look

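In the groups of 9 feeder-free and 8 CMK9 cells, a cell was singled out where its gap to the nearest cell exceeded Dixon's 95% critical share of the range; chance singles out about 1 in 20 groups, and 63 measures were examined in each group. Values are log2(RPM + 1) or its mean over a list unless stated.

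Feeder-free cell 1 was lowest in genes detected (9954; next 11351) and highest in kept genes at 0 (18.4%; next 8.10%). It was also lowest in COL2A1 (0; next 4.42) and in the lists for cholesterol (3.80; next 5.85), fatty acid synthesis (5.77; next 6.41), glycolysis (5.96; next 6.93) and chromatin (5.29; next 5.91). Feeder-free cell 3 had the most reads, 3804364, against 2503204 in the next.

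Single feeder-free cells also lay apart in MORN2 (cell 9 lowest at 0.56), EPHX2 (cell 8 lowest at 2.42), MAK16 (cell 8 highest at 6.57), RGS16 (cell 7 highest at 5.07) and the retinoid list (cell 8 highest at 4.32). In CMK9, cell 3 alone held VSNL1 (2.70) and cell 5 alone SOHLH2 (0.58), cell 8 was lowest in PABIR1 (0) and cell 2 lowest in the apoptosis and p53 list (4.24).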

How the results depend on the processing

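The counts of genes higher and lower by at least 2 in feeder-free CMK6 (83 and 138) depended most on how low values were weighted. They were 290 and 415 with a pseudocount of 0.1, 1 (PLA2G3) and 18 with a pseudocount of 10, 49 and 78 from the log2 of mean RPM, 260 and 363 from medians over cells, and 8 and 51 with a filter of at least 4. Without the filter they were 107 and 163, with quantile normalization 88 and 131, and with thinned reads 82 and 147. They were 68 and 155 with 1 TMM factor between the cultures (unweighted trimmed mean of summed reads, 1.06), applied to all feeder-free cells alike. Leaving out 1 cell at a time gave 74 to 136 higher and 124 to 173 lower, and the 136 came without feeder-free cell 1. Against the mean of both on-feeder cultures 60 genes were higher and 184 lower; leaving out an on-feeder culture gave 83 to 132 and 138 to 391. The limma fit called 0 genes in all 5 settings run, with smallest adjusted p from 0.0769 to 0.525 and 1005 to 1867 genes at an unadjusted p below 0.05. The planned edgeR and DESeq2 fits were not run, since reads could not be recovered to the required standard. The share of genes with a larger SD feeder-free was 58.4% without cell 1, an alternative added after seeing the data.

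None of the 24 genes of largest difference changed sign in 32 alternatives, but their size moved by more than the spread over cells in 40 of 216 values from settings other than left-out cells, all from the pseudocount or the summary over cells. FZD2 ranged from 1.95 to 7.30, VSNL1 from 1.86 to 7.37, PLA2G3 from 2.12 to 6.21, COL2A1 from 1.94 to 5.26, PLIN2 from -4.49 to -3.41, SOHLH2 from -6.78 to -2.20 and MAK16 from -5.21 to -1.18. List medians ranged from -1.03 to -0.69 (ATF4), -1.47 to -0.74 (actin), 0.73 to 1.37 (cholesterol), 0.80 to 1.05 (fatty acid synthesis) and -0.68 to -0.55 (core pluripotency). Without cell 1 the medians of 8 lists changed sign: insulin to 0.13, retinoid to 0.30, cell cycle to 0.23, collagens to 0.13, primed to -0.02, integrins to -0.01, glycolysis to 0.01 and interferon to -0.08. No paired analysis was possible because cell numbers only name cells and each culture is single.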
